A study of Rattus norvegicus with 6 samples.

Results

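Enteroendocrine cells are the hormone-secreting cells of the gut epithelium. In the colon, L cells make proglucagon (Gcg), the precursor of the glucagon-like peptides, together with peptide YY, and enterochromaffin cells make serotonin, starting from the enzyme Tph1. Both cell types store their products in dense-core granules packed with chromogranins and secretogranins, which enteric neurons also use. The 10 genes described here have such roles, and they were chosen with earlier results of these data known. They are the L cell peptides Gcg, Pyy and Insl5, the peptide hormones Sst and Cck, and the serotonin enzyme Tph1. The others are the granule proteins Chga, Chgb and Scg2 and the transcription factor Neurod1. Probes were assigned to them through the transcript accession that the scanner files give, which placed 11 of the 30367 probes of the array on 9 of the 10 genes. Insl5 had no probe. All 11 probes passed the filter on dim probes and entered the comparison.

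The colons came from male rats of 30 weeks of age that had been given azoxymethane (AOM), a colon carcinogen, by intraperitoneal injection at 15 mg/kg from 6 weeks of age. Dahl salt-sensitive rats (SS/Jr, called S) were set against the S.LEW(10)x12x2x3x5 congenic strain (S.LEW congenic), which carries a Lewis segment of chromosome 10 on the S background, with 3 rats of each strain and 1 one-color Agilent array per rat. Both strains received AOM, so no untreated colon enters the comparison, and the strain cannot be told apart from a response to AOM that differs between the strains. Whole colon RNA was labeled, and fewer cells of a type and less RNA per cell cannot be told apart in such samples. The labels do not say whether a piece of colon held tumor.

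Of the spots, 73.8% to 80.9% were well above background on the congenic arrays and 83.2% to 87.6% on the S arrays, without overlap. Detection thus differed with the strain. In other respects S rat 2 stood apart from the other S rats. Between arrays, S rat 2 correlated at r = 0.976, 0.967 and 0.967 with the congenic rats and at 0.900 and 0.936 with S rats 1 and 3, over the tested probes. The mean of 9 T and B lymphocyte markers, on the log2 signal scale, was 10.8 and 10.7 in S rats 1 and 3 against 6.52 in S rat 2 and 6.60 to 6.73 in the congenic rats. The mean of 23 enteric neuron markers was 9.51 in S rat 2, within the congenic range of 8.66 to 9.62, and 7.63 and 8.11 in S rats 1 and 3. Results that rest on S rat 2 are therefore given with and without it.

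Signals are quantile-normalized log2 intensities, so a difference of 1 is a 2-fold change, and levels of different probes are not compared. A gene was called when limma gave an unadjusted p under 0.05 with at least a 2-fold change, read at its brightest probe. Of the 9 genes, 5 were called higher in the congenic strain (Gcg, Tph1, Chga, Chgb and Neurod1) and 0 lower, where 3.79% of the 12396 genes tested were called higher and 2.63% lower. The same 5 genes were those in which every congenic rat lay above every S rat, a separation in this direction found in 14.2% of the genes tested. All 9 differences were above 0, with a median of 1.05, beside a median of 0.03 over all genes tested. Because the genes were chosen with earlier results of these data known, these counts and medians are a description and no test. None of the 9 passed an adjusted p under 0.05 by limma in the comparison of all 6 rats, nor did any of the 23971 probes tested, of which 3108 (13%) had an unadjusted p under 0.05. By the unpaired test that the methods name, 0 probes passed after adjustment as well and 2585 (10.8%) did before it. With 3 rats against 3, an exact permutation test of a single probe cannot go below p = 0.10, which is the value of each of the 5 called genes.

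**Figure D1:**
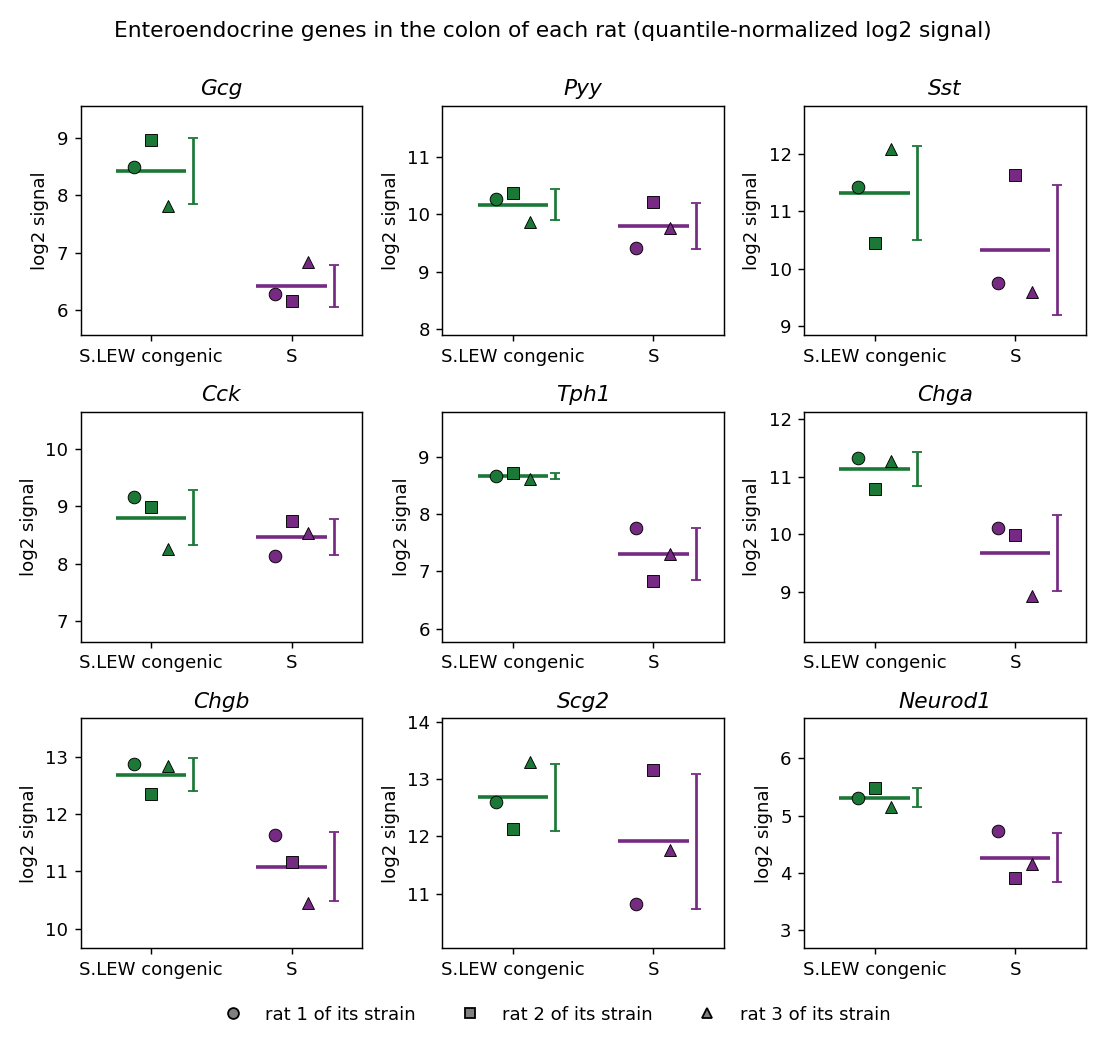
Log2 signal of the brightest probe of each gene (vertical axis, every panel spanning 4 log2 units) in the S.LEW congenic and S rats, with 1 marker per rat, a line at the mean and a bar of ± 1 SD (n = 3). The strains are apart for Gcg, Tph1, Chga, Chgb and Neurod1, and S rat 2 (purple square) sits among the congenic rats for Pyy, Sst, Cck and Scg2.

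Gcg, which encodes the precursor of glucagon-like peptides 1 and 2, had log2 signals of 8.49, 8.97 and 7.82 in the 3 congenic rats and of 6.27, 6.15 and 6.83 in the 3 S rats. Every congenic rat lay above every S rat, and S rat 2 had the lowest value of all. The means were 8.42 ± 0.58 and 6.42 ± 0.36 (SD, n = 3), a log2 difference of 2.01 ± 0.35 (SE) or 4.02-fold (limma, adjusted p = 0.203). The largest difference among the 9 genes was that of Gcg, at their brightest probes.

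Peptide YY, the hormone that L cells release together with the glucagon-like peptides, had a pair of probes. At the brighter probe (A_64_P051392) the log2 signals were 10.27, 10.38 and 9.86 in the congenic rats and 9.41, 10.22 and 9.77 in the S rats. S rat 2 lay within the congenic range and the strains overlapped, with a log2 difference of 0.37 ± 0.27 (SE, adjusted p = 0.533). At the dimmer probe (A_64_P051393) the signals were 9.40, 9.39 and 8.66 against 7.57, 9.00 and 8.57, again overlapping, with a log2 difference of 0.77 ± 0.42 (SE, adjusted p = 0.447). Neither Pyy probe was called with all 6 rats, and the dimmer was called higher without S rat 2, at a log2 difference of 1.08 ± 0.39 (SE, adjusted p = 0.099).

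The difference between Gcg and Pyy can be read as the ratio of their signals within each array, from which a change of equal fold in both drops out. The log2 ratio of Gcg to the brighter Pyy probe was -1.79, -1.41 and -2.05 in the congenic rats and -3.14, -4.07 and -2.94 in the S rats. The congenic ratios all lay above the S ratios, by 1.64 on average (exact two-sided permutation test, p = 0.10, the smallest value possible, and 0.35 after Benjamini-Hochberg adjustment over 7 ratios).

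Sst encodes somatostatin, which is made by D cells of the epithelium and by enteric neurons and restrains the release of other hormones. Its log2 signals were 11.42, 10.44 and 12.08 in the congenic rats and 9.75, 11.64 and 9.59 in the S rats. S rat 2 was above congenic rats 1 and 2, and the log2 difference was 0.99 ± 0.66 (SE, adjusted p = 0.507). Cholecystokinin (Cck), a peptide of the I cells of the upper gut and of neurons, was close between the strains. Its log2 signals were 9.15, 8.99 and 8.25 against 8.12, 8.74 and 8.54, a log2 difference of 0.33 ± 0.30 (SE, adjusted p = 0.604), with S rats 2 and 3 above congenic rat 3.

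Tph1 catalyses the first and rate-limiting step of serotonin synthesis in enterochromaffin cells. At its brighter probe (A_44_P306204) the log2 signals were 8.67, 8.71 and 8.61 in the congenic rats and 7.75, 6.84 and 7.30 in the S rats. The congenic values spanned 0.10 and the S values 0.91, with no overlap. The log2 difference was 1.37 ± 0.26 (SE, 2.58-fold, adjusted p = 0.210). The dimmer probe (A_64_P048210) gave 7.85, 7.79 and 7.96 against 6.76, 5.77 and 5.82, a log2 difference of 1.75 ± 0.30 (SE, 3.37-fold, adjusted p = 0.203), so both Tph1 probes were called higher.

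Chga encodes chromogranin A, the granule protein used to mark enteroendocrine cells, and Chgb its relative chromogranin B. For Chga the log2 signals were 11.34, 10.80 and 11.28 in the congenic rats and 10.11, 10.00 and 8.92 in the S rats. For Chgb they were 12.88, 12.35 and 12.83 against 11.64, 11.16 and 10.45. In both, congenic rat 2 was the lowest of its strain, S rat 3 the lowest of all, and the strains did not overlap. The log2 differences were 1.46 ± 0.36 (SE, 2.75-fold, adjusted p = 0.269) for Chga and 1.60 ± 0.34 (SE, 3.04-fold, adjusted p = 0.231) for Chgb.

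Chga and Chgb kept nearly the same ratio in 5 rats. The log2 ratio of Chgb to Chga was 1.54, 1.55 and 1.55 in the congenic rats and 1.52 and 1.53 in S rats 1 and 3, against 1.16 in S rat 2. Over the 6 arrays, their correlation was r = 0.988, the highest among the 36 pairs of the 9 genes (a description over 6 arrays that share 2 strains).

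Scg2, secretogranin II, is a granule protein of endocrine cells and neurons. Its log2 signals were 12.61, 12.14 and 13.29 in the congenic rats and 10.82, 13.16 and 11.76 in the S rats, with S rat 2 above congenic rats 1 and 2. The log2 difference was 0.77 ± 0.62 (SE, adjusted p = 0.565) and Scg2 was not called. Neurod1 is a basic helix-loop-helix factor that drives enteroendocrine differentiation. Its log2 signals were 5.31, 5.48 and 5.16 in the congenic rats and 4.74, 3.91 and 4.16 in the S rats, with no overlap and a log2 difference of 1.05 ± 0.26 (SE, 2.07-fold, adjusted p = 0.269). The probe was well above background in 2 of the 3 rats of each strain, and the call sat just past the 2-fold threshold.

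The 9 genes fell into those in which S rat 2 stayed with the other S rats and those in which it did not. Against the mean of S rats 1 and 3, S rat 2 differed by -0.40 for Gcg, -0.68 for Tph1, -0.54 for Neurod1, 0.11 for Chgb and 0.48 for Chga, on the log2 scale. For Sst and Scg2 it was higher by 1.97 and 1.86, which was more than the congenic mean, at 1.64 and 1.39 above the same rats. Pyy and Cck lay between, with S rat 2 higher by 0.63 and 0.41 and the congenic mean by 0.58 and 0.47. The signal of S rat 2 was at or above the lowest congenic value for these 4 genes of the 9 and for all 23 enteric neuron markers. It was so for all 10 smooth muscle markers and for 6 of the 17 colonic epithelium markers. The epithelium count includes Aqp8, in which every S rat lay above every congenic rat.

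**Figure D2:**
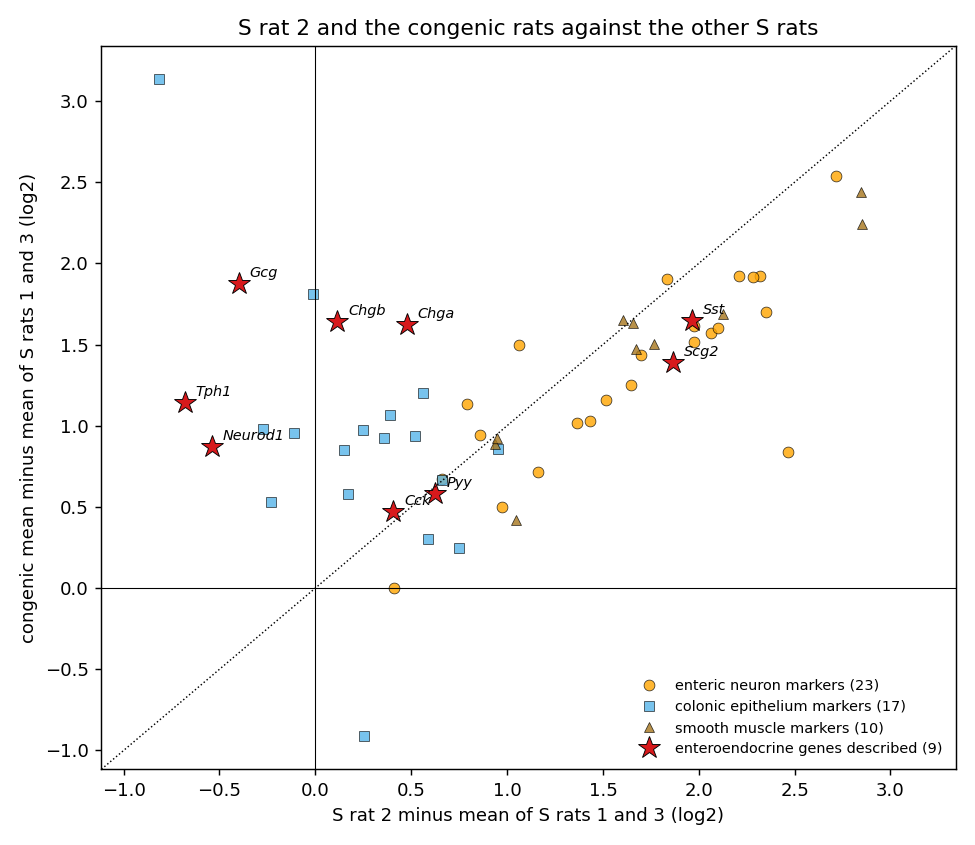
Each gene's log2 difference of S rat 2 (horizontal axis) and of the congenic mean (vertical axis) from the mean of S rats 1 and 3, for the 9 enteroendocrine genes (stars, named) and 3 marker lists, with a dotted line where the values are equal. Sst (1.97, 1.64) and Scg2 (1.86, 1.39) lie among the neuron and smooth muscle markers, and Gcg (-0.40, 1.87), Tph1 (-0.68, 1.14) and Neurod1 (-0.54, 0.87) lie to the left, where S rat 2 is below the other S rats.

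Leaving S rat 2 out changed which genes were called. Without it, 6 of the 9 were called higher, since Sst (log2 difference 1.64 ± 0.48, SE, adjusted p = 0.060) and Scg2 (1.39 ± 0.44, SE, adjusted p = 0.072) were added and Neurod1 (0.87 ± 0.23, SE) fell under 2-fold. Gcg (1.87, adjusted p = 0.027), Tph1 (1.14, adjusted p = 0.018), Chga (1.62, adjusted p = 0.041), Chgb (1.64, adjusted p = 0.039) and Neurod1 (adjusted p = 0.048) then passed an adjusted p under 0.05. Over the rest of the array, 11.3% of genes were called higher without S rat 2 and 14.1% were higher at an adjusted p under 0.05.

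The arrays lay on 2 slides, taking arrays with a shared scan time as a slide. Congenic rat 1 and the S rats were on slide 1 and congenic rats 2 and 3 on slide 2. On slide 1 alone, congenic rat 1 exceeded the 3 S rats by a log2 difference of 2.07 for Gcg, 1.37 for Tph1, 1.66 for Chga, 1.79 for Chgb and 1.04 for Neurod1, and the first 4 of these were called, where 2.15% of genes were called higher. This sets 1 congenic rat against 3, so the spread comes from the S rats and the congenic rat is assumed to vary like them. The slide as a block rests on the same contrast, because slide 2 holds congenic rats alone, and gave the same differences with all 5 called, where 2.66% of genes were. The corresponding values for Pyy, Sst, Cck and Scg2 were 0.47, 1.09, 0.69 and 0.69, none of them called.

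The whole colon holds several tissues, and their markers differed between the rats. The mean of the epithelium markers separated the strains. The neuron, smooth muscle and lymphocyte means set S rats 1 and 3 apart from the other rats. Of the 17 colonic epithelium markers with a probe, all were tested, 4 were called higher (Car1, Car2, Slc26a3 and Vil1) and 0 lower, with a median log2 difference of 0.80. Of all genes, 3.79% were called higher and 2.63% lower. Aqp8, named after its value was seen, fell just short of a lower call. Its log2 difference was -0.998 ± 0.257 (SE), with every congenic rat below every S rat. The mean log2 level of the 17 epithelium markers was 12.6 to 13.1 in the congenic rats and 12.0 to 12.3 in the S rats, so the strains did not overlap. Of 23 tested enteric neuron markers 0 were called, with a median log2 difference of 0.87, and of 10 smooth muscle markers 1 was called higher, with a median of 0.95. Without S rat 2, 15 of the 23 neuron markers and 7 of the 10 smooth muscle markers were called higher, and the epithelium count stayed at 4. The share of all genes called higher was then 11.3%. Of 9 tested lymphocyte markers 6 were called lower, with a median of -2.31, and all 9 were called lower without S rat 2. A further 5 with a probe (Blk, Ccr7, Cd2, Cd3e and Cd79b, named after their values were seen) were well above background in S rats 1 and 3 alone, which kept them out of the test. Cd79b, for example, had log2 signals of 12.93 and 12.44 in those rats, 4.17 in S rat 2 and 3.31, 2.35 and 4.05 in the congenic rats.

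The 5 called genes followed the epithelium list more closely than the neuron list over the 6 arrays. Gcg correlated with the epithelium mean at r = 0.913 and with the neuron mean at 0.308, Tph1 at 0.829 and 0.209, Neurod1 at 0.822 and 0.126, Chgb at 0.854 and 0.496, and Chga at 0.852 and 0.587. For Scg2 and Sst the order was the reverse, at 0.449 and 0.519 with the epithelium mean and 0.982 and 0.964 with the neuron mean. Pyy correlated at 0.746 and 0.648 and Cck at 0.701 and 0.381, and Pyy correlated most closely with the smooth muscle mean, at 0.841, and at -0.829 with the lymphocyte mean. The 5 called genes and the epithelium mean separated the strains and the neuron mean did not, so for these genes the order follows in part from their choice. The correlations describe 6 arrays of 2 strains and are no test.

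Taken relative to the mean of the epithelium markers on the same array, Gcg alone of the 9 was still called, with a log2 difference of 1.20 ± 0.35 (SE), where 0.484% of genes were called higher and the median of all genes moved to -0.78. The others were 0.79 for Chgb, 0.65 for Chga, 0.56 for Tph1 and 0.24 for Neurod1, and 0.95 for the dimmer Tph1 probe. Pyy and Cck turned to -0.44 and -0.47 and Scg2 to -0.041. Relative to the mean of the neuron markers 0 of the 9 were called, where 0.307% of genes were and the median of all genes moved to -0.74, with 1.23 ± 0.75 (SE) for Gcg and -0.0067 for Scg2. Both settings were added after the data had been seen, and the part that the makeup of the colon pieces had in the strain differences was not tested.

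**Figure D3:**
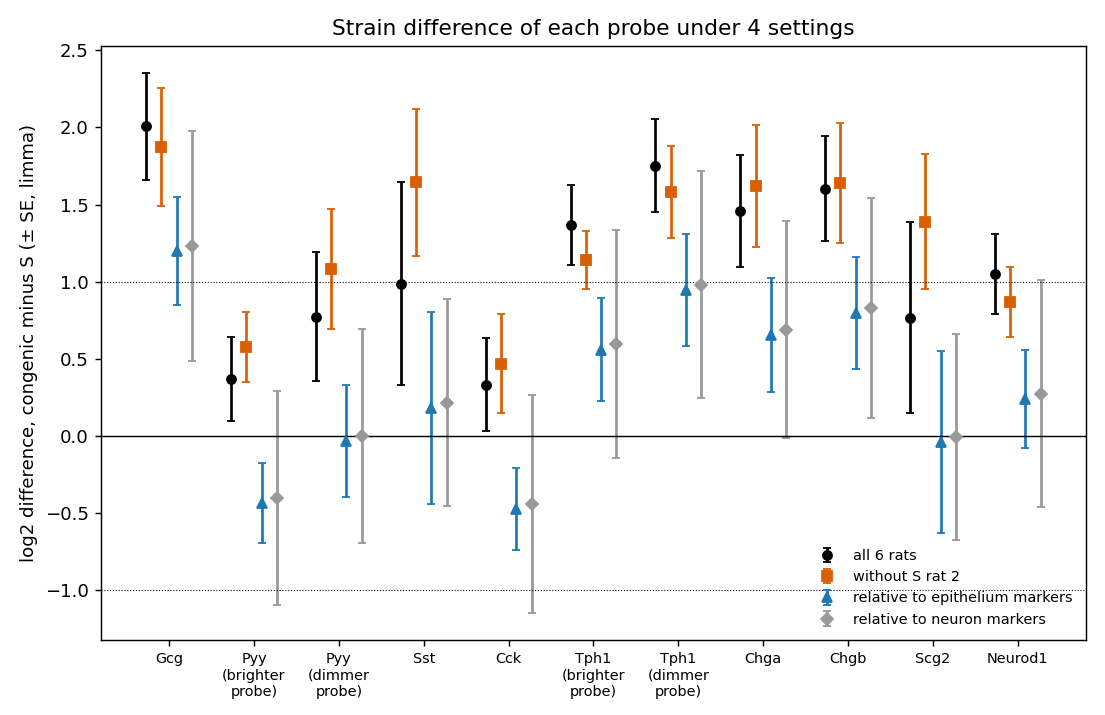
Log2 difference between congenic and S rats (vertical axis, ± SE from limma) for each of the 11 probes, with all 6 rats, without S rat 2, and relative to the epithelium or neuron markers of the same array. Dotted lines mark a 2-fold change. Gcg stays above it at 2.01, 1.87, 1.20 and 1.23, and its error bar is widest relative to the neuron markers (SE 0.75).

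The promoters of 8 of the 10 genes were in the RefSeq table used (build GRCr8), each from 250 bases before to 50 bases after the annotated start. The array was designed on an earlier assembly, and these positions are those of GRCr8. Searched on both strands were the E-box CANNTG, which basic helix-loop-helix factors such as Neurod1 bind, the cyclic AMP response element TGACGTCA, the TATA box TATAAA and the homeodomain core TAATTA. The promoters of Gcg, Tph1 and Chgb, all called higher, and those of Sst and Scg2, which moved with each other across the rats (r = 0.919), are shown 5′ to 3′ with every match in capitals.

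Gcg, chr3:67531484-67531783, minus strand: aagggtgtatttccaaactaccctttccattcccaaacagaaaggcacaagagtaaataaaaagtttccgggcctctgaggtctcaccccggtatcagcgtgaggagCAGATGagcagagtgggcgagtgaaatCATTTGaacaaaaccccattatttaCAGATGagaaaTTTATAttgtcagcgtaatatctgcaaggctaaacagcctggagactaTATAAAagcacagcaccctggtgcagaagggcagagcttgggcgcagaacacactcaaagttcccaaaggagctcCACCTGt

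Tph1, chr1:106314579-106314878, minus strand: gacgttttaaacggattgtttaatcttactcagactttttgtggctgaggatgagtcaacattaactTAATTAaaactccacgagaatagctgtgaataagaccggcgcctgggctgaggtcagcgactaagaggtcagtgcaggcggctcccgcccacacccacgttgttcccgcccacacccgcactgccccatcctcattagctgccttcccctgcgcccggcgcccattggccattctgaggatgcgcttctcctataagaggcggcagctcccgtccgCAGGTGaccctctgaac

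Chgb, chr3:140496462-140496761, plus strand: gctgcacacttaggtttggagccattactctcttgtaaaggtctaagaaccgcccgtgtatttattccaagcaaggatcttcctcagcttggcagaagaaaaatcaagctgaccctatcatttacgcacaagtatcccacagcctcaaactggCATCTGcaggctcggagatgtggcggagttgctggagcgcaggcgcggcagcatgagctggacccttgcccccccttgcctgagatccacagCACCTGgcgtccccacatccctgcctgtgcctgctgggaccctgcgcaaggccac

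Sst, chr11:90461296-90461595, plus strand: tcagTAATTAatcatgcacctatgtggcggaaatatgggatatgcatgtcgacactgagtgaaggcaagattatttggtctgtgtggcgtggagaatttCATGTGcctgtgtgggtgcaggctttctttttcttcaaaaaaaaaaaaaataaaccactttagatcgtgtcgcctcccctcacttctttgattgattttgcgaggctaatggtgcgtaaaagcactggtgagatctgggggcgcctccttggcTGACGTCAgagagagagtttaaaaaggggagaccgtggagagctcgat

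Scg2, chr9:88256817-88257116, minus strand: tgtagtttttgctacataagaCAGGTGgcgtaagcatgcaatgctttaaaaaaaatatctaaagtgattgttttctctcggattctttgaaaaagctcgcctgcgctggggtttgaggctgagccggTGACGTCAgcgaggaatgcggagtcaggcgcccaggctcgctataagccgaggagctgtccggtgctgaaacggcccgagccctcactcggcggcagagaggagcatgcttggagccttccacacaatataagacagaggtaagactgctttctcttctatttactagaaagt

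The Gcg promoter held 4 E-boxes and the TATA box at 2 places, the nearer of which starts 32 bases before the annotated start. TATAAA occurred in 14.2% and CANNTG in 72.1% of the 33469 promoters of this length in the table, which lists some genes with several starts. Chgb held 2 E-boxes and Tph1 held 1 E-box and 1 TAATTA, a word present in 5.36% of promoters. The word TGACGTCA, present in 1.83% of promoters, was found in Sst and in Scg2 and in none of the other 6 promoters read (Gcg, Pyy, Insl5, Tph1, Chgb and Neurod1). Sst held 1 TAATTA and 1 E-box besides, and Scg2 held 1 E-box. No matches overlapped in the promoters shown, and a match is a description of letters in this window only.

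Of 14 tested genes in a list of enterochromaffin cell genes, 5 were called higher and 0 lower, and 13 had a difference above 0 (median 0.79). Over all genes tested, 3.79% were called higher and 2.63% lower, and 53% had a difference above 0. The list includes Tph1 and Chga, already described and counted among its 5 calls. The remaining called genes were Slc18a1, Lmx1a and Ddc. Slc18a1, the transporter that loads serotonin into granules, had log2 signals of 10.00, 9.46 and 9.92 in the congenic rats and 9.01, 8.00 and 7.16 in the S rats, a log2 difference of 1.74 ± 0.47 (SE, adjusted p = 0.284). Ddc, the decarboxylase that completes serotonin synthesis after Tph1, had 11.20, 11.48 and 11.02 against 9.62, 10.29 and 9.38, a log2 difference of 1.47 ± 0.29 (SE, adjusted p = 0.216), and its dimmer probe gave 1.70. Lmx1a, a homeodomain factor of the enterochromaffin lineage, had 6.68, 6.61 and 6.48 against 5.64, 4.71 and 4.65, a log2 difference of 1.59 ± 0.30 (SE, adjusted p = 0.209). None of these 3 genes overlapped between the strains, and neither did Tph1. The strains did not overlap for 7 of the 14 genes of the list, all higher in the congenic rats, a separation that 14.2% of all genes showed. The strains overlapped for the others, named after their values were seen. Their log2 differences were 0.86 for Cacna1a, 0.72 for Tac1, 0.52 for Adra2a, 0.35 for Slc6a4, 0.33 for Maob, 0.16 for Slc18a2 and -0.08 for Gpr35. In this list S rat 2 was at or above the lowest congenic value for 5 of the 14 genes. Without it 8 were called higher, beside 11.3% of all genes.

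Of 38 tested genes of the secretory granule, 3 were called higher (Chgb, Chga and Rimbp2) and 0 lower, with a median log2 difference of 0.74. The shares over all genes were 3.79% called higher and 2.63% lower. Rimbp2, a scaffold of secretory release sites, had 9.31, 9.13 and 9.78 against 8.57, 8.72 and 7.79, a log2 difference of 1.05 ± 0.32 (SE, adjusted p = 0.317). The prohormone convertases that cut hormone precursors did not pass: Pcsk1 differed by 1.15 ± 0.51 (SE) and Pcsk2 by 0.84 ± 0.25 (SE), both without overlap of the strains, the separation that 14.2% of genes showed. Scg3 (0.84 ± 0.54, SE) and the carboxypeptidase Cpe (0.52 ± 0.55, SE) overlapped, with S rat 2 at 8.00 and 13.68 within or above the congenic values of 7.18 to 8.35 and 12.88 to 13.41. S rat 2 was at or above the lowest congenic value for 31 of the 38 granule genes. That count includes 2 genes in which every S rat lay above every congenic rat. Without S rat 2, 21 of the granule genes were called higher and 1 lower, beside 11.3% of all genes called higher. Several genes of this list are also neuronal, and the neuron list shares Snap25 with it.

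Of 19 other tested gut peptides and hormones, which include Sst and Cck, 1 was called higher (Ghrl) and 1 lower (Guca2b), with a median log2 difference of 0.33, beside 3.79% and 2.63% of all genes. Without S rat 2, 7 of the 19 were called higher and 1 lower, beside 11.3% of all genes called higher. Ghrl, encoding the appetite hormone ghrelin, had log2 signals of 8.39, 7.87 and 7.57 in the congenic rats and 6.55, 5.27 and 5.00 in the S rats, a log2 difference of 2.34 ± 0.45 (SE, adjusted p = 0.211). Guca2b, encoding uroguanylin, had 8.44, 8.24 and 8.20 against 9.59, 8.68 and 9.88, a log2 difference of -1.09 ± 0.33 (SE, adjusted p = 0.317). Nts was too dim to be tested and Sct had no matched probe. For 17 of these 19 genes S rat 2 was at or above the lowest congenic value, among them Guca2b, with every S rat above every congenic rat. Ghrl was an exception, with 6.55 as the highest value of the S rats.

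Among 19 tested transcription factors of the enteroendocrine lineage, 5 were called higher and 1 lower (median 0.81), beside the 3.79% and 2.63% of all genes. Without S rat 2, 10 were called higher and 1 lower, beside 11.3% of all genes called higher. Neurod1, Lmx1a, Pax4 and, named after its value was seen, Foxa3 were among those called higher. Pax4 differed by 1.43 ± 0.33 (SE, adjusted p = 0.263), with 6.59, 6.51 and 6.96 against 5.94, 4.92 and 4.91, and Foxa3 by 1.22 ± 0.32 (SE, adjusted p = 0.277). Neurog3, the factor that starts the lineage and acts before Neurod1, differed by -0.17 ± 0.36 (SE, adjusted p = 0.829) with overlapping strains, and its sign depended on the setting. Hhex, the gene called lower, had 10.90 and 10.20 in S rats 1 and 3 against 6.93 in S rat 2 and 6.23, 6.87 and 7.29 in the congenic rats. The lymphocyte markers were high in S rats 1 and 3 as well.

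Nutrient and bile acid sensors of these cells and receptors for their hormones were described in the same way. Of 17 tested sensors, 3 were called higher and 2 lower, and 6 higher and 2 lower without S rat 2. The shares over all genes were 3.79% higher and 2.63% lower, and 11.3% higher without S rat 2. Agtr1a, an angiotensin II receptor, had 10.97, 10.36 and 11.97 against 8.93, 8.84 and 7.86, a log2 difference of 2.56 ± 0.48 (SE, adjusted p = 0.209). Trpm4, a calcium-activated cation channel, differed by 1.60 ± 0.24 (SE, adjusted p = 0.197), and Nr1h4, the bile acid receptor FXR, named after its value was seen, by 1.22 ± 0.24 (SE, adjusted p = 0.224). Slc15a1, a peptide transporter, was not well above background in any congenic rat and was at least 2.18-fold lower there (limma, adjusted p = 0.203), and Sctr, the secretin receptor, was likewise not well above background in the congenic rats, without a bound above 1. The same shares stand beside the 22 tested receptors, counted with the peptidase Dpp4. Without S rat 2, 7 of the receptors were called higher and 1 lower. With all rats 2 were called higher, Sstr2 (1.09 ± 0.26, SE, adjusted p = 0.268) and Htr2b (1.16 ± 0.42, SE, adjusted p = 0.355), and 1 lower, Dpp4 (-1.35 ± 0.44, SE, adjusted p = 0.335), an enzyme that cleaves glucagon-like peptide 1 and peptide YY. The dimmer Dpp4 probe was not called (-0.75 ± 0.42, SE) and its strains overlapped, while the dimmer Sstr2 probe was called (1.74 ± 0.33, SE).

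**Figure D4:**
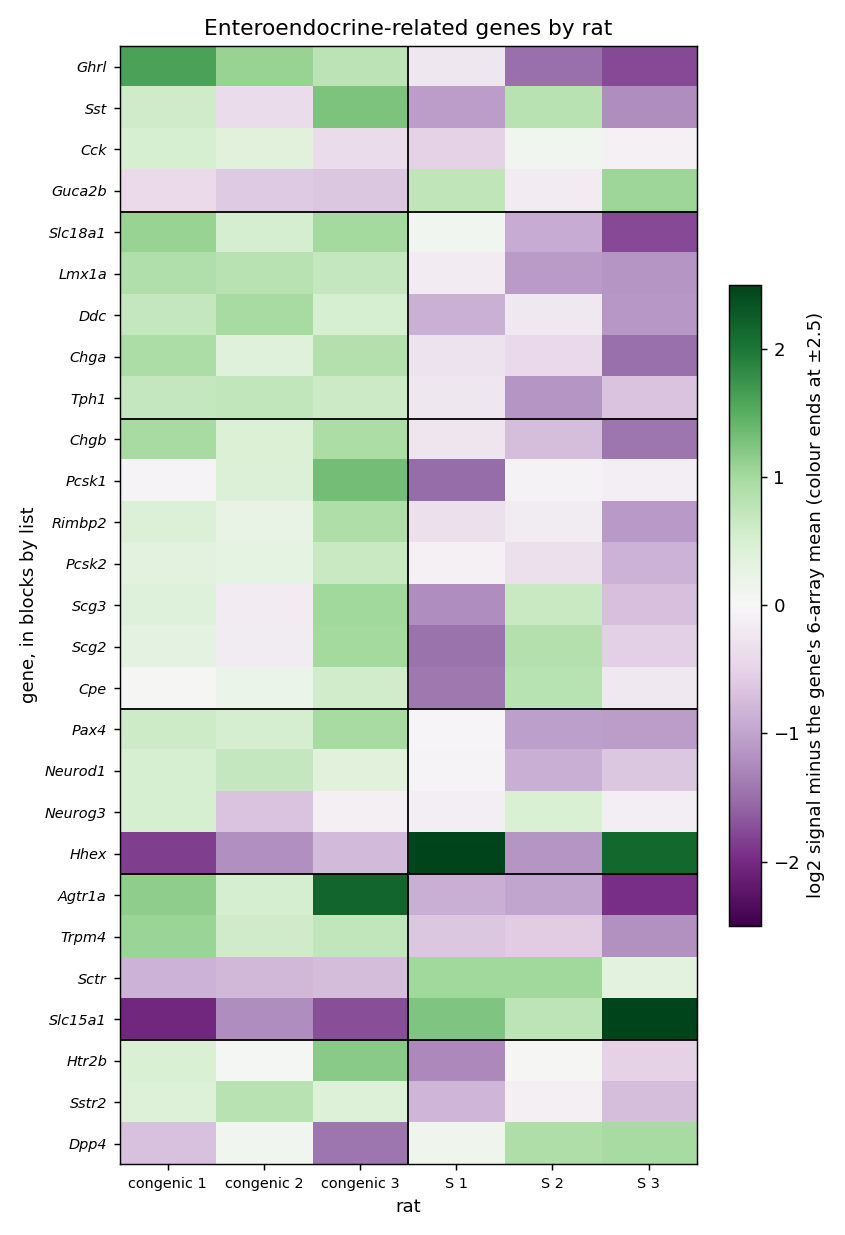
Log2 signal of each gene minus its mean over the 6 arrays (colour, ending at ± 2.5) for 27 related genes named by rule, in blocks for gut peptides, enterochromaffin genes, granule genes, transcription factors, sensors and receptors from top to bottom. The enterochromaffin genes shown (Slc18a1, Lmx1a, Ddc, Chga, Tph1) are higher in all 3 congenic rats. They are the 5 called higher of 14 tested in that list, and its uncalled genes are not shown. Sst, Scg3, Scg2 and Cpe are high in S rat 2 as well.

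Seen as lists, the 9 genes had mean centred log2 levels of 0.66, 0.45 and 0.55 in the congenic rats and -0.62, -0.27 and -0.77 in the S rats. The enterochromaffin list, which shares Tph1 and Chga with these genes, had the same form. Its levels were 0.47, 0.29 and 0.50 against -0.47, -0.17 and -0.62. The granule list did not have this form, with 0.36, -0.03 and 0.57 against -0.79, 0.45 and -0.56. There S rat 2 lay within the congenic values, as it did for the neuron markers. Chga and Chgb also mark pancreatic islets, as Gcg does. Of 11 tested pancreas markers 0 were called higher and 1 lower (Cela1). Ins1 had a log2 difference of -0.05 ± 0.20 (SE) and Ins2 of -0.56 ± 0.33 (SE). Ppy, named after its value was seen, had 0.18 ± 0.24 (SE) at its brighter probe. At its dimmer probe it had 0.62 ± 0.25 (SE), with every congenic rat above every S rat. Whether the pieces held pancreatic tissue was not tested. Of 9 tested tuft cell markers, another rare epithelial type, 1 was called higher (Ptgs1) and 0 lower. Of 8 enteric glia markers 1 was called higher (Cdh19, 1.86 ± 0.59, SE) and 0 lower. Beside the pancreas, tuft cell and glia counts, 3.79% of all genes were called higher and 2.63% lower.

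**Figure D5:**
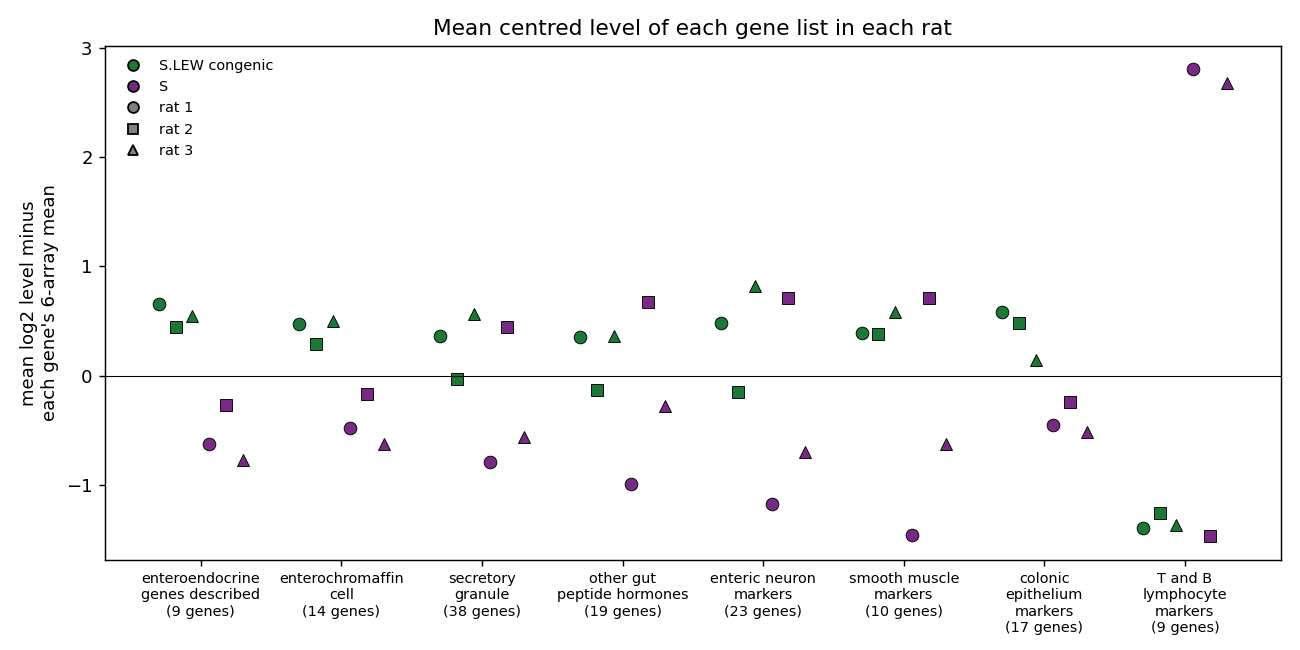
Mean log2 level of each gene list in each rat after subtracting each gene's mean over the 6 arrays (vertical axis), green for S.LEW congenic and purple for S. The 9 enteroendocrine genes, the enterochromaffin list and the epithelium list separate the strains, and S rat 2 (purple square) joins the congenic rats for granule, gut peptide, neuron and smooth muscle genes and, at -1.47, for lymphocyte markers.

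The genes whose pattern over the 6 rats was most like that of Gcg, by Pearson correlation among 12392 other genes, were Exosc4 (r = 0.999), Slc35a1 (0.998), Acat1 (0.997), Kif23 (0.997) and Timm8a1 (0.996). None of these is a hormone or granule gene, and their log2 differences were 0.44, 0.68, 0.36, 0.48 and 0.48, all under 2-fold. For Chga they were Tmed2 (r = 0.999), S100z (0.998), Cdhr1 (0.996), Ugt1a6 (0.991) and Chgb (0.988), with log2 differences of 0.22, 0.98, 1.30, 0.64 and 1.60. With 6 arrays many genes reach such values, and they are given as a description. Of the 7 ratios taken between member genes within an array, the ratios of Tph1, Scg2, Sst, Cck and Gcg to Chga overlapped between the strains, with mean differences of -0.09, -0.69, -0.47, -1.13 and 0.55 on the log2 scale (exact two-sided permutation p = 0.20 or higher in each, 0.47 or higher after adjustment).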

How the data were processed

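RNA from the colons of 3 S.LEW congenic and 3 S rats was hybridized to single-color Agilent Rat 4x44K arrays. The authors extracted spot intensities with Agilent Feature Extraction 11.0.1.1, and the deposited intensity (processed signal) is background-subtracted but not normalized between arrays. The authors also deposited a log2 table of 23997 probes, quantile-normalized in GeneSpring, which served as an alternative. It held all 11 probes of the genes described, within 0.0106 of the values used here.

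Here, spots marked as non-uniform or population outliers were dropped, log2 intensities were averaged per probe and quantile-normalized, and strains were compared at the 23971 probes that were well above background in 3 or more of the 6 arrays by lmFit and eBayes (limma 3.58.1, R 4.3.3). Calls required an unadjusted p under 0.05 and a 2-fold change, after the cut-offs of the study, and p-values were adjusted by Benjamini-Hochberg over all tested probes. Permutation tests were exact and two-sided. The fit was tested on simulated data. Where no array of a strain was well above background, a bound was computed against the lowest signal well above background. Arrays have no read depth, and their number limits the precision. Each array is a separate rat.

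Accessions were matched to RefSeq genes of GRCr8, which named 18005 of 30367 probes (15168 genes). Gene lists were read at the brightest tested probe. Named genes were every probe of the 10 genes, up to 4 called genes of each list (or the 2 largest differences where fewer were called), 10 genes fixed by name, and the 5 genes most like Gcg and Chga. The genes, lists and rules were chosen with earlier results of these data known. Alternatives were 75th percentile scaling, the deposited values, normexp background correction, other filters, the methods' t-test, array weights, blocks for replicate number and slide, and leaving out each rat. The files hold no mean signal, so normexp (offset 50) used the median signal, a setting added after seeing the data. A result for 1 gene of the transcription factor list, counted among its calls, is not reported here. Figures were drawn with matplotlib 3.10.9.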

Additional observations from a re-analysis of the deposited data

How the results depend on the processing

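Gcg, Tph1, Chga and Chgb kept their direction and call under all 17 alternatives that did not refer them to marker genes, of which the slide block and slide 1 alone share the contrast of congenic rat 1 with the S rats. Neurod1 lost its call with 75th percentile scaling (0.81), normexp (0.40), slide 1 alone (1.04) and without congenic rat 2, S rat 2 or S rat 3, and was not tested where all 6 arrays had to be above background. Normexp also gave smaller log2 differences for Gcg (1.39), Tph1 (1.03, and 1.15 at the dimmer probe), Chga (1.37) and Chgb (1.54). Leaving out each rat in turn gave 4 to 6 genes called higher and 0 lower. The log2 differences were then 1.73 to 2.31 for Gcg, 1.14 to 1.59 for Tph1, 1.08 to 1.68 for Chga, 1.29 to 1.88 for Chgb and 0.22 to 1.39 for Scg2. Adjusted p-values for Gcg were 0.027 to 0.820 (limma). Relative to the epithelium markers 1 gene was called, with Pyy at -0.44 and -0.035 (brighter and dimmer probe), Cck at -0.47 and Scg2 at -0.041. Relative to the neuron markers 0 were called, with Pyy at -0.40 and -0.000373, Cck at -0.44 and Scg2 at -0.0067. Among related genes, Neurog3 turned to 0.44 with the slide as a block and on slide 1 alone, 0.13 without congenic rat 2 and 0.04 without S rat 2, and Cpe ranged from -0.057 without S rat 1 to 1.06 without S rat 2. The cause of these changes was not tested.

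Over all probes, 775 were called higher and 563 lower, 57.9% of calls higher. Higher and lower calls were 692 and 760 with 75th percentile scaling (47.7% higher), 359 and 380 with normexp (48.6%), 679 and 342 with all 6 arrays above background (66.5%), 514 and 172 by the t-test (74.9%), 551 and 225 with the slide block (71.0%) and 443 and 188 on slide 1 alone (70.2%). Leaving out a rat gave 476 to 2399 higher and 186 to 1725 lower, the highest values of both without S rat 2 and the lowest without S rat 3. Lower calls were 337 without congenic rat 2, 352 without congenic rat 3 and 329 without S rat 1. Probes at an adjusted p under 0.05 numbered 0 with all rats, 1 with 75th percentile scaling, 41 without S rat 1, and 0 to 5562 over the rats left out, the highest without S rat 2. Array weights gave 12481 such probes, 2088 called higher and 1741 lower, but the weight estimation stopped before converging and put a weight of 29.3 on S rat 3 against 0.12 on S rat 2. With the replicate number as a block, 791 probes were called higher and 743 lower and the same 5 genes of the 9, 0 at an adjusted p under 0.05. Same-numbered rats did not deviate together (r = -0.02, -0.13 and -0.06), which cannot exclude that the rats were paired. The study housed an S rat with a congenic rat in each cage, and the labels do not name the cages.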
